A study of Mus musculus with 4 samples.

Results

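The genes described here are F630028O10Rik, the long transcript from whose locus the microRNA miR-223 is cut (its host transcript), and genes described in the literature as targets of miR-223. They were chosen by name, from a list of 30 symbols, and 29 of the 30 were found among the 31053 genes of the files: the host and 28 described targets. The 30th symbol, Ankh, was not analysed here. The source was the aorta-gonad-mesonephros region of mice at embryonic day 10.5, the site at which blood stem cells first bud from the wall of the aorta. The cells were sorted for the endothelial surface protein CD31 and against CD45, a protein of blood cells, and single-cell RNA was counted with the 10x Genomics 3′ kit (version 3). The groups were 2 libraries of mir-223 -/- embryos (KO) and 2 libraries of age-matched wild-type embryos (WT). The sources used here do not say which bases the KO allele lacks, how many embryos each library held, or whether libraries of a group came from separate litters, so a p-value covers no more than the spread between the libraries at hand, which may be technical.

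A microRNA is a short RNA that guides a silencing complex to messenger RNAs, mainly through its seed, the bases near its 5′ end, which pair with short matches in the 3′ untranslated region (3′ UTR). Bound messengers are translated less and are often degraded sooner. miR-223 is best known from granulocytes and their precursors, where the factors C/EBPα, C/EBPβ and PU.1 (Spi1) act on its promoter and where Mef2c, a transcription factor of myeloid progenitors, is its classic target. It is also abundant in platelets.

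The 3p strand is the one with the described targets, and its seed, bases 2 to 8, is in capitals here beside that of the 5p strand, both from RefSeq on mouse build GRCm38.p6. The 3p strand lies at chrX:96242884-96242905 and the 5p strand at chrX:96242842-96242864, both on the plus strand. Among 1679 mature mouse microRNAs in the RefSeq table, 1 has the 3p seed.

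mmu-miR-223-3p: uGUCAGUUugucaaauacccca

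mmu-miR-223-5p: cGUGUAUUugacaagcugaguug

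A 3′ UTR was searched on its transcribed strand for AACTGAC, the match to bases 2 to 8, with or without a following A (AACTGACA), and for ACTGACA, the match to bases 2 to 7 with a following A, counted only where it is not part of AACTGACA. Of the 28 described targets, 24 (85.7%) held at least 1 of these 3 matches in an annotated 3′ UTR, and 22 (78.6%) held a match to bases 2 to 8. Of all genes in the files with an annotated 3′ UTR, 15.8% held any of the matches and 8.74% a match to bases 2 to 8. Scarb1, Parp1, Chuk and Cdc27 held none. A match is a description of the sequence, and its use was not measured.

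The matches are printed for 5 targets that the results below turn on, in windows of 30 bases of the messenger (GENCODE M21, GRCm38) with the match in capitals. Those of Rhob, which encodes a small GTPase of endosomes and stress responses, lie at chr12:8497767-8497774 and chr12:8498391-8498397 on the minus strand.

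Rhob, first: ttttttaaataAACTGACAgatgacaaatg

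Rhob, second: aagacatttgcAACTGACttggggtcgaga

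Those of E2f1, a transcription factor of the entry into S phase, lie at chr2:154559512-154559518 and chr2:154559881-154559887 on the minus strand.

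E2f1, first: cttgagaagaaAACTGACccaatggtgggt

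E2f1, second: gagggagacagACTGACAgccatggatggg

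Those of Mef2c lie at chr13:83663896-83663903 and chr13:83664306-83664312 on the plus strand.

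Mef2c, first: actattgggtcAACTGACAtccattgtata

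Mef2c, second: ttcatgattttAACTGACccataacaatgt

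Nfia, a nuclear factor I transcription factor described in a feedback with miR-223 in granulocyte differentiation, has 1 match at chr4:98112139-98112146 on the plus strand. Ect2, an exchange factor that acts in dividing cells, has 1 at chr3:27097346-27097352 on the minus strand.

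Nfia: gttttgacagaAACTGACAggaatcaaaac

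Ect2: tttaatagtttAACTGACtggatttttttc

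The libraries held 109713066 and 167542930 UMIs (1 UMI marks 1 captured RNA molecule) in KO replicates 1 and 2, against 95158639 and 181682389 in WT replicates 1 and 2. After filters on genes, mitochondrial UMIs and doublets, 4127 and 5879 KO cells and 2295 and 6891 WT cells were used, with medians of 20147 and 18734 UMIs per cell in KO and 30152 and 18172 in WT. Any 2 libraries shared 8 to 28 barcodes. The cells fell into 21 clusters, most of which were named from fixed markers as endothelial-like (2951 and 4986 KO cells, 1705 and 5932 WT cells), hemogenic endothelial-like (115 and 72 KO cells, 10 and 70 WT cells), megakaryocyte-like (16 and 46 KO cells, 30 and 26 WT cells), mesenchymal-like (538 and 276 KO cells, 352 and 274 WT cells) and primordial germ cell-like (89 and 147 KO cells, 46 and 145 WT cells). Other clusters were neural-like (435 cells), primitive erythroid-like (149 cells) and epithelial-like (35 cells), and a cluster of 747 cells stayed unnamed. The hemogenic cluster was led by Spi1, Nupr1, Lyz2, Gfi1, Mpo and Runx1, so its name covers hemogenic endothelium and early blood alike, and its 10 cells in WT replicate 1 are the minimum set for a test. In endothelial-like cells all 10 endothelial markers were detected in every library, at sums of 4420 and 4465 CPM in KO and 4826 and 4238 CPM in WT. Mesenchymal-like, germ cell-like and megakaryocyte-like cells were thus present among the sorted cells.

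Levels are UMI counts summed over the cells of a class in a library and given as CPM, the counts per 1000000 UMIs of that class in that library. A kit of this kind tags the 3′ end of a messenger, so levels are compared within a gene. KO was tested against WT on the summed counts with edgeR's quasi-likelihood test, with Benjamini-Hochberg adjustment over all genes tested in a class and a threshold of 0.05. The SE of an edgeR log2 difference is its absolute value divided by the square root of the F statistic of that test. SD is over n = 2 libraries throughout.

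The host transcript was higher in KO libraries than in WT libraries, in endothelial-like and in hemogenic endothelial-like cells. Its gene lies at chrX:96239926-96243636 on the plus strand (GRCm38), and the miR-223 hairpin, at chrX:96242817-96242926, lies inside the last exon of both annotated transcripts, 710 bases before their end. GENCODE classes the gene as antisense. The next gene on that side, Vsig4, begins at base 96247203 on the minus strand and does not overlap it. Since 3′ tags may come from outside the deleted part, the host's counts do not check the genotype, and the microRNA itself was not counted.

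Megakaryocyte-like cells had the highest mean level of the host in both genotypes, although the WT libraries overlapped there with those of hemogenic endothelial-like cells. It reached 150.9 and 276.5 CPM there in KO (68 and 420 UMIs), against 5.17 and 33.1 CPM in WT (9 and 33 UMIs), means of 214 ± 88.8 and 19.1 ± 19.7 CPM (SD). Both KO libraries lay above both WT libraries, and the libraries of a genotype differed from each other as well. The log2 difference of 3.61 (SE 0.751) did not pass in edgeR (unadjusted p = 0.00188, adjusted p = 1.0), nor in DESeq2 (adjusted p = 1.0). It lay between 2.71 and 5.39 in the 11 alternatives run, 5.39 when WT replicate 2, the higher WT library, was left out. It passed with the replicate number as a block (adjusted p = 0.0366), without a filter on low counts (1.7e-11), and when KO replicate 1 (5.73e-10), KO replicate 2 (8.67e-05) or WT replicate 2 (0.00332) was left out. Megakaryocyte-like cells of KO replicate 2 had up to 47 host UMIs in 1 cell, those of KO replicate 1 up to 36, and those of WT up to 2 and 7.

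Hemogenic endothelial-like cells came next, with 42.0 and 62.2 CPM in KO (114 and 102 UMIs), against 3.13 and 11.3 CPM in WT (1 and 18 UMIs). The lower KO library was above the higher WT library. The host rose, with a log2 difference of 2.38 (SE 0.382, edgeR adjusted p = 0.0338), and was 1 of 3 genes called among the 9154 tested in this class (0.0328%). WT replicate 1 gave 1 UMI from 10 cells, and without it the call was lost (log2 difference 2.15, adjusted p = 0.0505). It was also lost in DESeq2 (2.54, adjusted p = 0.489) and with doublets kept (2.41, adjusted p = 0.132), with the difference in the same direction in each.

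Endothelial-like cells had far less of it, 0.658 and 0.703 CPM in KO (43 and 73 UMIs), against 0 and 0.0329 CPM in WT (0 and 4 UMIs). In WT replicate 1 a count of 3 UMIs would be 0.0513 CPM. The host rose here as well, with a log2 difference of 4.89 (SE 0.604, edgeR adjusted p = 0.0280), and was 1 of 18 genes called among 14649 (0.123%). This call passed in all 11 alternatives that were run, with adjusted p-values of 4.45e-13 to 0.0418, the smallest without a filter on low counts. DESeq2 gave a log2 difference of 5.03 with a larger SE, 0.954. In edgeR the difference was 4.32 without WT replicate 1, and no value is given without WT replicate 2, since no WT host UMI is left there.

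**Figure D1:**
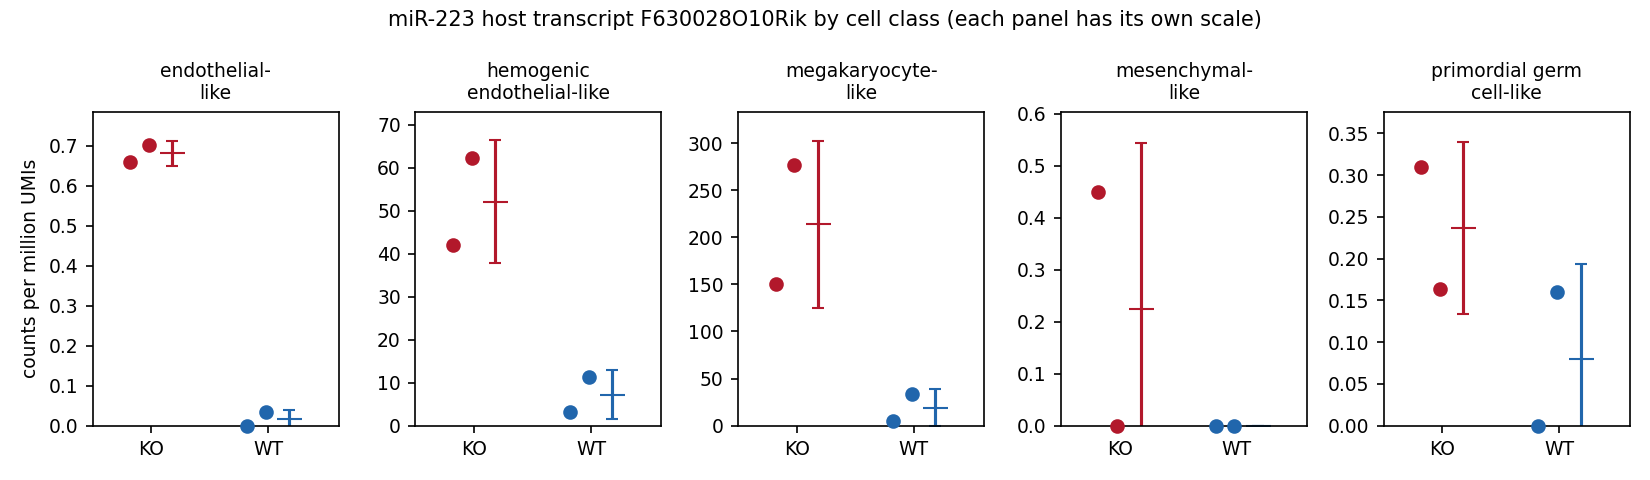
CPM of the host transcript F630028O10Rik (vertical axis, linear, a scale of its own in each panel) in each library of KO and WT (dots) with the mean and SD of 2 libraries (bars), by cell class. Both KO dots lie above both WT dots in the endothelial-like, hemogenic endothelial-like and megakaryocyte-like panels; in the mesenchymal-like and primordial germ cell-like panels every value is 0.450 CPM or less.

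The remaining classes held almost no host UMIs. Mesenchymal-like cells had 5 and 0 in KO and 0 in both WT libraries, primordial germ cell-like cells had 1 and 1 in KO and 0 and 1 in WT, and primitive erythroid-like cells had none in any library. The host was too low to be tested in mesenchymal-like and primordial germ cell-like cells with the filter on low counts.

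The size of the KO effect was compared between classes in a single model with a term for each library. The host's effect was 1.96 smaller on the log2 scale in hemogenic endothelial-like than in endothelial-like cells (a difference of -1.96, SE 0.703, unadjusted p = 0.0118, edgeR adjusted p = 1.0). In megakaryocyte-like cells the difference from endothelial-like cells was -1.38 (SE 0.623, unadjusted p = 0.0396, edgeR adjusted p = 0.849). Neither passed, so the effect was not shown to differ between these classes.

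Counts of cells were compared as well. With every cell thinned to 5000 UMIs, a host UMI was found in 33.3% and 50% of megakaryocyte-like cells in KO, against 6.67% and 20% in WT. For hemogenic endothelial-like cells the shares were 13.9% and 22.2% in KO, against 0% and 2.90% in WT, where 0 of 10 cells in WT replicate 1 allows a share of up to 30% (3 cells). In endothelial-like cells they were 0.376% and 0.285% in KO, against 0% (up to 0.178%, which is 3 cells) and 0.0512% in WT. Unthinned, the KO shares were 43.8% and 69.6%, 49.6% and 62.5%, and 1.46% and 1.32% in these 3 classes, against WT shares of 20% and 38.5%, 10.0% and 18.6%, and 0% and 0.0674%. Both KO libraries were above both WT libraries in each case, and the exact two-sided permutation p was 0.333, the smallest that 2 libraries against 2 allow. As a measure of free RNA, mesenchymal-like cells gave unthinned shares of 0.743% and 0% in KO and 0% in both WT libraries, at median depths of 18720.5 and 16248.5 UMIs per cell in KO and 24615 and 15534 in WT. Endothelial-like cells had median depths of 20366 and 19065.5 in KO and 30924 and 18581.5 in WT. Thinned, the mesenchymal-like share in KO replicate 1 was 0.188% (1 of 531 cells, exact binomial interval 0.00477% to 1.04%), so the endothelial-like shares of KO were not separated from it at this number of cells.

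**Figure D2:**
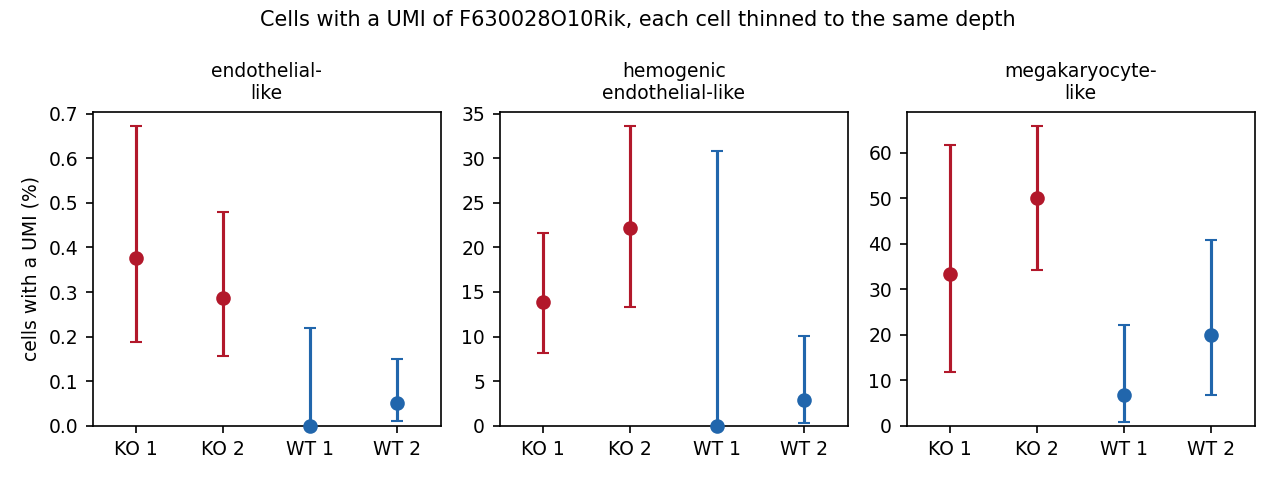
Share of cells with at least 1 UMI of the host transcript (vertical axis, percent, a scale of its own in each panel) in each library, with every cell thinned to 5000 UMIs and bars for exact 95% binomial (Clopper-Pearson) intervals, which cover counting error only. Both KO libraries lie above both WT libraries in each of the 3 panels (endothelial-like, hemogenic endothelial-like and megakaryocyte-like), with intervals that overlap in part.

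The host was also set against Pf4 and Ppbp, which encode platelet chemokines and are the leading megakaryocyte markers. Per 100 UMIs of Pf4 and Ppbp there were 1.92 and 1.55 host UMIs in megakaryocyte-like cells of KO and 0.101 and 0.219 in WT. In endothelial-like cells there were 19.5 and 6.45 in KO and 0 and 0.302 in WT, and in hemogenic endothelial-like cells 207 and 176 in KO and 50 and 72 in WT. In KO the libraries of these classes did not overlap in this ratio. In WT it was highest in hemogenic endothelial-like cells, while endothelial-like and megakaryocyte-like cells overlapped. KO was above WT in each of these classes. Mesenchymal-like cells had ratios of 9.43 and 0 in KO (5 and 0 host UMIs) and 0 in both WT libraries. Primordial germ cell-like cells had 33.3 and 4.35 in KO (1 and 1 host UMIs) and 0 and 2.38 in WT. The endothelial-like KO ratios overlapped with those of both, and the part of free RNA in them was not tested. Of the 43 and 66 endothelial-like KO cells with a host UMI, 16.3% and 12.1% also had a UMI of Runx1 or Spi1, against 3.37% and 3.03% of the KO cells without one. For Pf4 or Ppbp these shares were 9.30% and 28.8%, against 5.16% and 10.9%. These cells were picked by their own reads and deeper cells hold more of every gene, so the shares are a description.

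Markers of other blood cells varied between the same libraries, and their part in the host's difference was not tested. In megakaryocyte-like cells the 12 megakaryocyte markers summed to 10147 and 21408 CPM in KO and 6407 and 17902 in WT, all 12 being detected in every library. The 9 primitive erythroid markers summed to 1930 and 1436 CPM there in KO and 606 and 1045 in WT. In hemogenic endothelial-like cells the 9 granulocytic markers summed to 96.5 and 235.2 CPM in KO and 138 and 148 in WT, with Elane at 0 in 3 of the 4 libraries and Ctsg, S100a8, Ngp and Ly6c2 at 0 in all of them. The 10 macrophage markers summed to 22.1 and 196.8 CPM in KO and 37.6 and 96.4 in WT, and all 10 were detected in KO replicate 2, against 3 to 5 of 10 in the other libraries.

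None of the 28 described targets was called in any class in the comparison with the filter on low counts. Tests were possible for 24 of them in endothelial-like, 21 in hemogenic endothelial-like, 20 in megakaryocyte-like, 25 in mesenchymal-like and 22 in primordial germ cell-like cells, 112 pairs of target and class in all. edgeR called 0 of these pairs, with 3 at an unadjusted p under 0.05, and of all genes tested 1.74%, 3.03%, 1.06%, 2.3% and 3.55% were under it in these classes, in the same order. DESeq2 called 0 of the 126 pairs to which it gave an adjusted p, with 1 at an unadjusted p under 0.05. The shares of all genes called by edgeR were 0.0% in megakaryocyte-like, 0.00826% in mesenchymal-like and 0.153% in primordial germ cell-like cells, so calls were rare for any gene at this number of libraries. Nlrp3, Cxcl2 and Ccl3 were too low for a test in every class.

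The point estimates of the targets lay near 0, with 44 pairs above it and 68 below. In endothelial-like cells 8 targets were above 0 and 16 below, with a median log2 difference of -0.04, against -0.0016 for all genes tested, and a range of -0.29 to 0.21. Hemogenic endothelial-like cells had 6 above and 15 below (median -0.09, range -0.63 to 0.78), and megakaryocyte-like cells had 10 and 10 (median -0.0052, range -0.74 to 1.24). Mesenchymal-like cells had 11 above and 14 below (median -0.02), and primordial germ cell-like cells 9 above and 13 below (median -0.06). The median of all genes tested lay between -0.0020 and 0.0038 in every class. The median SE of a target was 0.156 in endothelial-like cells, 0.283 in hemogenic endothelial-like and 0.429 in megakaryocyte-like cells. An SE is not the limit of what could be resolved, since larger differences did not pass either. Among them was the 1.24 of Rhob in megakaryocyte-like cells.

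The targets were also split by whether they hold a seed match. In endothelial-like cells the 20 tested targets with a match had a median log2 difference of -0.04 and the 4 without one -0.03. In hemogenic endothelial-like cells the medians were -0.13 for 17 and 0.06 for 4, and in megakaryocyte-like cells -0.0052 for 16 and 0.08 for 4. With 4 targets in the smaller group no test of the difference was made.

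**Figure D3:**
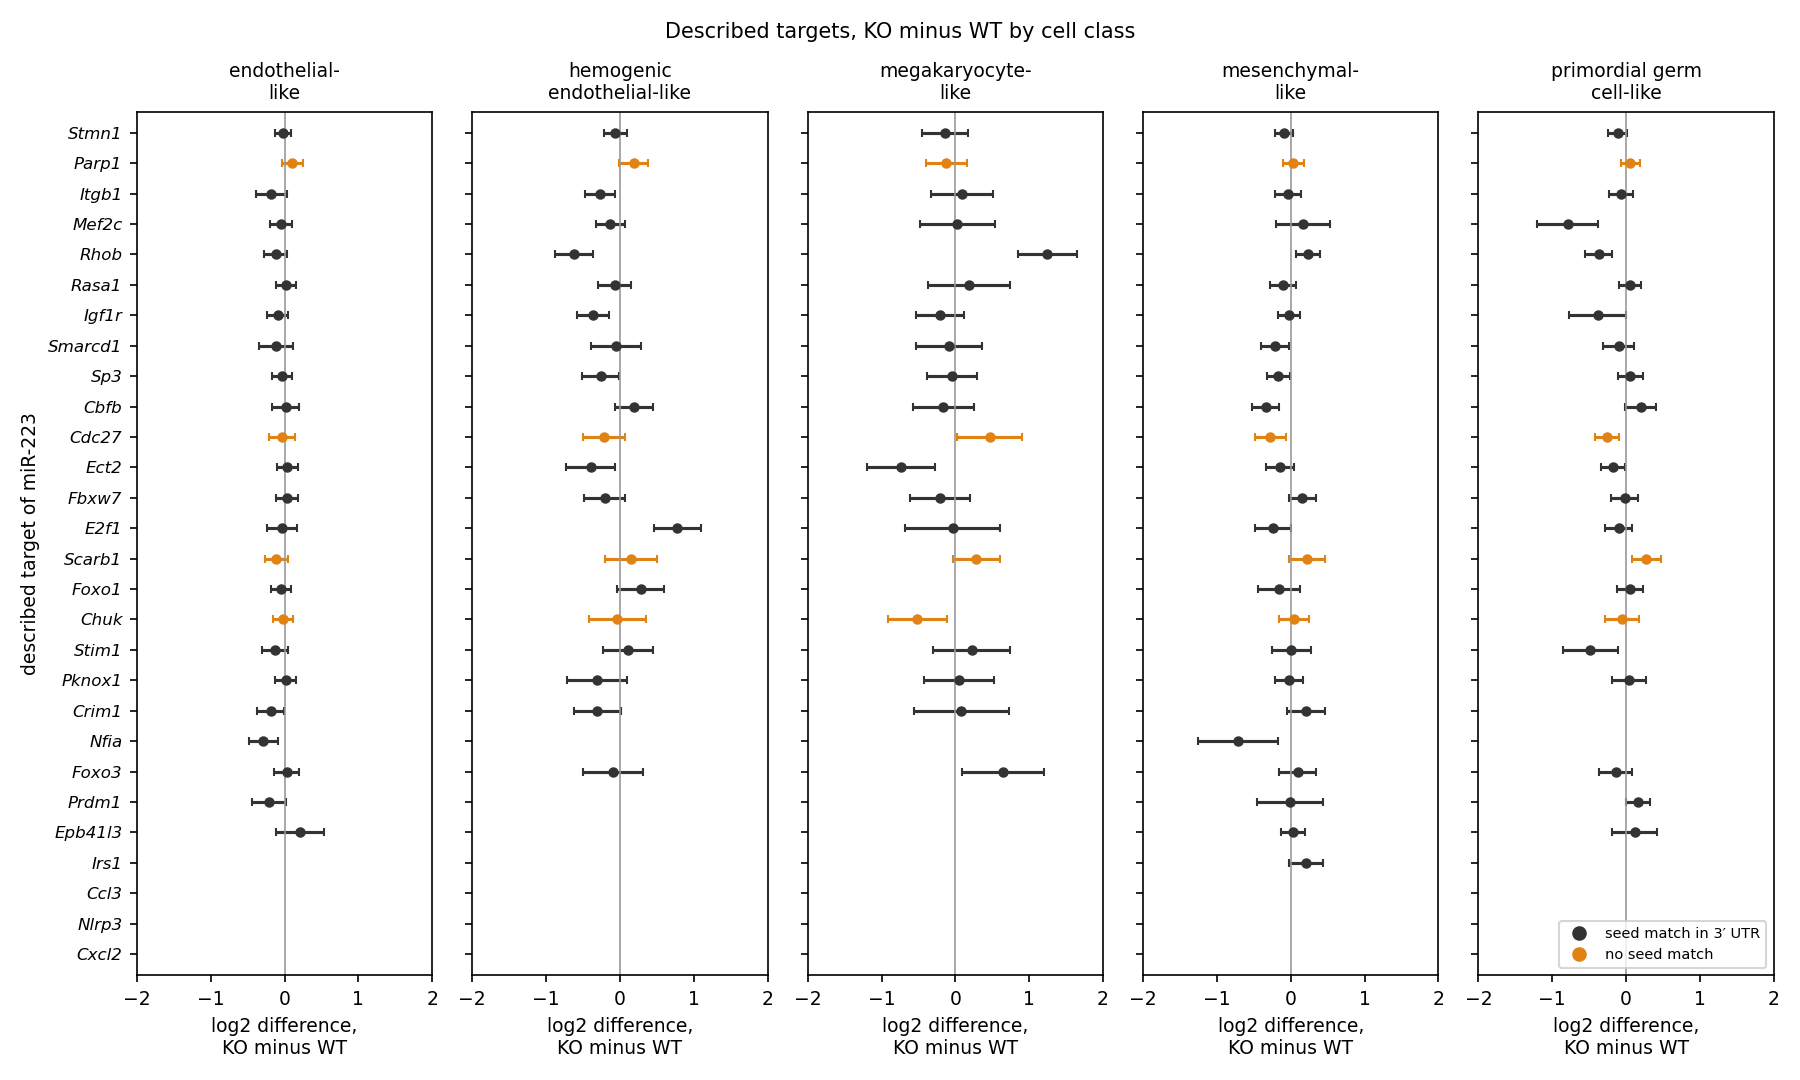
Log2 difference of KO minus WT (horizontal axis) with its SE for each of the 28 described targets (rows) in 5 cell classes; black points hold a seed match in an annotated 3′ UTR, orange points do not, and an empty place means too few UMIs for a test. Most points lie near 0; Rhob in megakaryocyte-like cells, at 1.24, is the only one past 1.

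Counted by library, targets with both KO values above both WT values numbered 0 of 24 in endothelial-like cells, 2 of 21 in hemogenic endothelial-like, 2 of 20 in megakaryocyte-like, 1 of 25 in mesenchymal-like and 2 of 22 in primordial germ cell-like cells. The same shares over all genes tested were 7.77%, 15.1%, 10.8%, 9.28% and 9.81%. Targets with both KO values below both WT values numbered 2 of 24, 5 of 21, 2 of 20, 4 of 25 and 9 of 22 in the same order of classes, against 12.3%, 14.2%, 11.6%, 16.3% and 21.2% of all genes tested. Both counts follow CPM with no further scaling.

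Rhob had the smallest p-value of the targets in megakaryocyte-like and in primordial germ cell-like cells and the second smallest in hemogenic endothelial-like cells, with estimates of both signs. In megakaryocyte-like cells it had 88.8 and 76.4 CPM in KO (40 and 116 UMIs), against 24.7 and 46.1 CPM in WT (43 and 46 UMIs). Both KO libraries were above both WT libraries, with a log2 difference of 1.24 (SE 0.399, unadjusted p = 0.0166, edgeR adjusted p = 1.0). The 10 endothelial markers, all detected in every library, summed to 475 and 784 CPM in these cells in KO and 455 and 719 CPM in WT. The mesenchymal markers summed to 57.7 and 99.4 CPM in KO and 42.0 and 315 CPM in WT, and their part was not tested.

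In hemogenic endothelial-like cells Rhob had 62.2 and 64.6 CPM in KO (169 and 106 UMIs), against 150.2 and 72.7 CPM in WT (48 and 116 UMIs). The KO libraries lay below both WT libraries, but WT replicate 1, with 10 cells, stood apart from WT replicate 2. The log2 difference was -0.63 (SE 0.261, unadjusted p = 0.0285, edgeR adjusted p = 1.0), and among the alternatives run it passed only when WT replicate 2 was left out (-1.18, adjusted p = 0.0481), which leaves those 10 cells as the only WT sample. The 13 mesenchymal markers summed to 27.6 and 12.8 CPM in KO, against 288 CPM in WT replicate 1, where all 13 were detected, and 10.0 CPM in WT replicate 2, and their part was not tested.

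In endothelial-like cells Rhob had 198 and 193 CPM in KO and 249 and 180.5 CPM in WT, and the groups overlapped (log2 difference -0.12). In mesenchymal-like cells it had 85.8 and 79.6 CPM in KO and 82.0 and 61.1 CPM in WT (0.23, SE 0.164, unadjusted p = 0.181). Primordial germ cell-like cells had 26.6 CPM in both KO libraries, against 40.9 and 32.2 CPM in WT (-0.37, SE 0.178, unadjusted p = 0.0514). The effect in megakaryocyte-like cells minus that in endothelial-like cells was 1.42 (SE 0.311, unadjusted p = 0.000224, edgeR adjusted p = 0.420). Of 13117 genes in this comparison 1 was called (0.00762%), and it was not a target. Rhob passed it without a filter on low counts (1.42, adjusted p = 3.72e-05) and without WT replicate 2 (2.07, adjusted p = 0.000814). The other comparisons of the effect with endothelial-like cells called 0.0% of genes for hemogenic endothelial-like, 0.0152% for mesenchymal-like and 0.00762% for primordial germ cell-like cells, and no target in any of them. At an unadjusted p under 0.05 there were 1 of 25 targets for each of hemogenic endothelial-like, megakaryocyte-like and mesenchymal-like cells and 0 for primordial germ cell-like cells, against 2.34%, 5.73%, 2.04% and 2.1% of all genes in the same order. DESeq2 was not run on these comparisons.

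E2f1 was higher in both KO libraries than in both WT libraries of hemogenic endothelial-like cells. It had 35.0 and 28.6 CPM in KO (95 and 47 UMIs), against 21.9 and 17.5 CPM in WT (7 and 28 UMIs). The log2 difference was 0.78 (SE 0.317, unadjusted p = 0.0241, edgeR adjusted p = 1.0), so it did not pass. In endothelial-like cells it had 24.1 and 19.5 CPM in KO and 26.9 and 18.5 CPM in WT, and the libraries numbered 1 were the higher ones in both genotypes.

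Mef2c overlapped between the genotypes in the classes where it was high. Endothelial-like cells had 213 and 256.5 CPM in KO, against 227 and 263 CPM in WT (log2 difference -0.05, SE 0.144). Hemogenic endothelial-like cells had 232 and 258 CPM in KO, against 209.7 and 304 CPM in WT (-0.13, SE 0.192). Megakaryocyte-like cells had 150.9 and 436.5 CPM in KO, against 210.4 and 381 CPM in WT (0.03, SE 0.512). The groups overlapped in each of these 3 classes, and replicate 2 was the higher in both genotypes each time. In primordial germ cell-like cells, where few UMIs were counted, it had 2.79 and 2.30 CPM in KO (9 and 14 UMIs) and 4.46 and 4.49 CPM in WT (12 and 28 UMIs), a log2 difference of -0.79 (SE 0.414, unadjusted p = 0.0733).

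**Figure D4:**
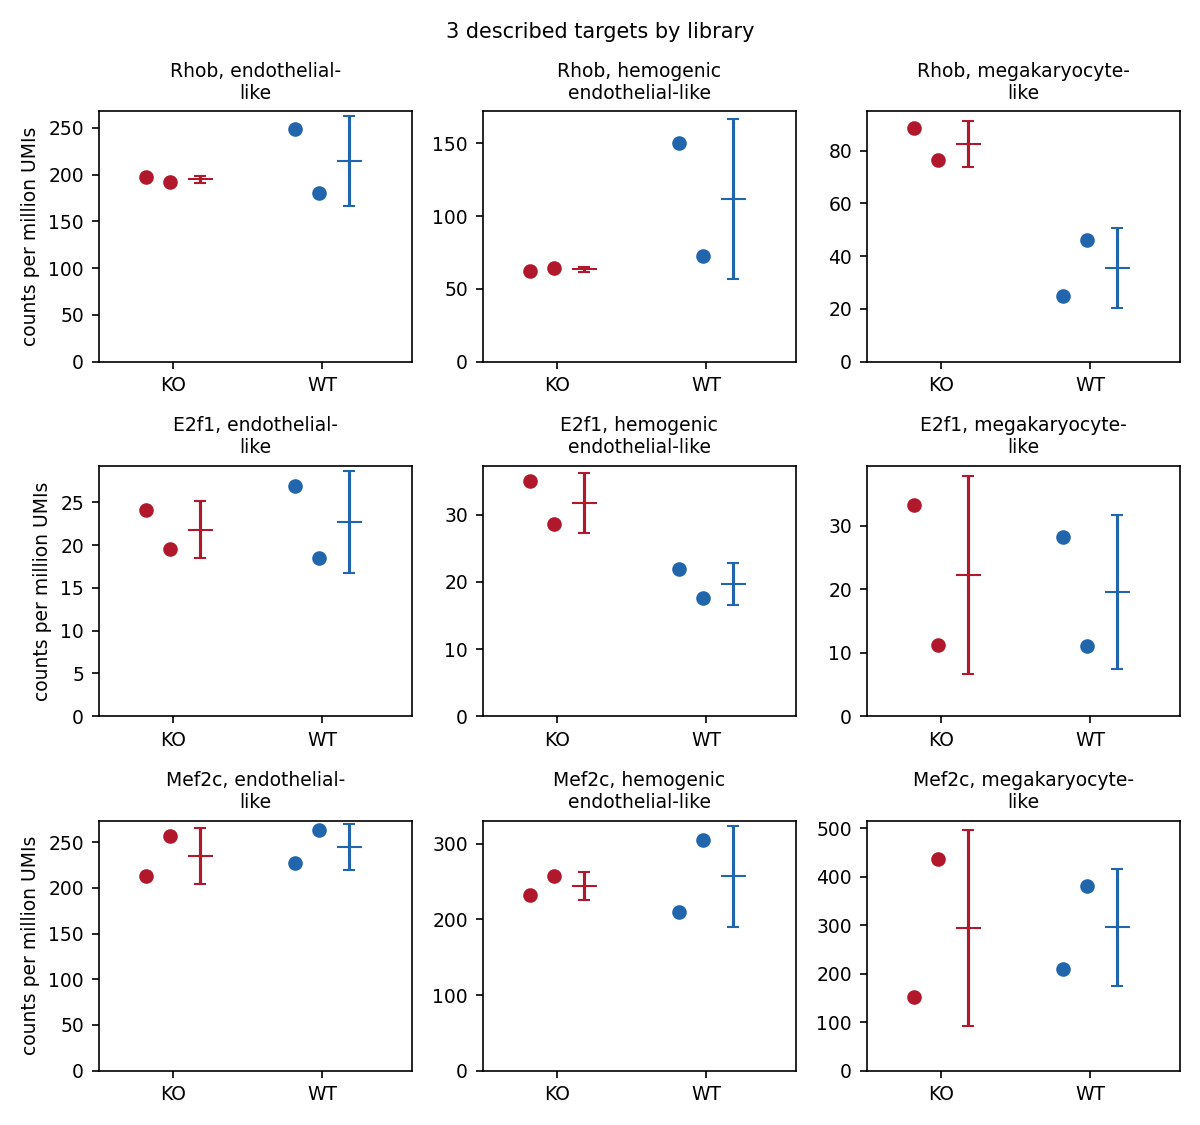
CPM (vertical axis, from 0, a scale of its own in each panel) of Rhob, E2f1 and Mef2c in each KO and WT library (dots), with the mean and SD of 2 libraries (bars), in endothelial-like, hemogenic endothelial-like and megakaryocyte-like cells. The KO and WT dots of Mef2c overlap in all 3 classes, while those of Rhob are apart in hemogenic endothelial-like and megakaryocyte-like cells, on opposite sides.

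Nfia had the lowest estimate of the targets in endothelial-like cells. It had 17.9 and 26.5 CPM in KO, against 25.6 and 29.2 CPM in WT (log2 difference -0.29, SE 0.200, unadjusted p = 0.184), and the groups overlapped. In mesenchymal-like cells KO replicate 1 stood apart, with 10.4 CPM beside 31.4 CPM in KO replicate 2, against 34.8 and 32.3 CPM in WT (-0.71, SE 0.536). Both KO libraries were below both WT libraries. The difference passed there only without KO replicate 2 (-1.66, adjusted p = 0.00121).

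Stmn1, which encodes stathmin, a protein that destabilises microtubules, was among the most counted targets. In endothelial-like cells it had 1091 and 1115 CPM in KO and 1140 and 1119 CPM in WT (log2 difference -0.02, SE 0.111). In hemogenic endothelial-like cells it had 1300 and 1091 CPM in KO and 1314 and 1202 CPM in WT (-0.06), in megakaryocyte-like cells 501.5 and 329 CPM in KO and 557 and 363 CPM in WT (-0.14), and in mesenchymal-like cells 1458 and 1511 CPM in KO and 1633 and 1583 CPM in WT (-0.09). Both KO libraries were below both WT libraries in endothelial-like and mesenchymal-like cells, and also in primordial germ cell-like cells, with 533 and 509.8 CPM in KO and 628.5 and 551 CPM in WT (-0.11, SE 0.126). Of all genes tested, 12.3%, 16.3% and 21.2% also had both KO libraries below both WT libraries in these classes, in the same order. The estimate of Stmn1 was below 0 in all 5 classes, and none of the 5 passed. All 5 come from the same libraries, so they are not independent of each other.

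Itgb1, the β1 integrin subunit, had 250.1 and 317.5 CPM in endothelial-like cells of KO and 256.4 and 391 CPM in those of WT (log2 difference -0.18, SE 0.208). In hemogenic endothelial-like cells it had 174 and 234 CPM in KO and 200.3 and 272 CPM in WT (-0.27, SE 0.203). In megakaryocyte-like cells it had 153 and 250.2 CPM in KO and 126.5 and 262 CPM in WT (0.09, SE 0.421). Mesenchymal-like cells had 134 and 163 CPM in KO and 135 and 177 CPM in WT, and primordial germ cell-like cells 56.0 and 71.7 CPM in KO and 63.2 and 76.0 CPM in WT. The groups overlapped in every class, and in each genotype replicate 2 was the higher library.

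The rest of the targets with the smallest p-values in a class were no clearer. Ect2 had 8.88 and 10.5 CPM in KO megakaryocyte-like cells (4 and 16 UMIs) and 20.1 and 13.04 CPM in WT (35 and 13 UMIs), with both KO libraries below both WT libraries (log2 difference -0.74, SE 0.463, unadjusted p = 0.155). Crim1, a membrane protein that binds BMPs, had 16.1 and 21.3 CPM in KO endothelial-like cells and 19.3 and 23.6 CPM in WT (-0.19, SE 0.183). Cbfb, the partner subunit of the Runx factors, had 47.4 and 41.3 CPM in KO mesenchymal-like cells and 66.2 and 48.1 CPM in WT (-0.34, SE 0.180, unadjusted p = 0.0883). Cdc27, a subunit of the anaphase-promoting complex and without a seed match, had 30.4 and 37.0 CPM in KO mesenchymal-like cells and 34.9 and 48.6 CPM in WT (-0.28, SE 0.211), and 42.4 and 48.1 CPM in KO germ cell-like cells and 55.0 and 57.7 CPM in WT (-0.26, SE 0.160). Parp1, a nuclear enzyme of the DNA damage response and also without a match, had 180.5 and 186.5 CPM in KO mesenchymal-like cells and 171 and 195 CPM in WT, and 559 and 583 CPM in KO germ cell-like cells and 539 and 603 CPM in WT, and overlapped in both.

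In the chemokines Ccl3 and Cxcl2, single libraries held nearly all the UMIs. In hemogenic endothelial-like cells Cxcl2 had 3 and 36 UMIs in KO and 0 in both WT libraries, and Ccl3 had 0 and 1 UMIs in KO and 0 and 24 in WT. The library high in Cxcl2, KO replicate 2, is the one in which all 10 macrophage markers were detected. Both genes were under the filter there, and each passed in 1 alternative. Ccl3 was lower in KO without the filter (edgeR adjusted p = 0.00262), where the difference rests on the 24 UMIs of WT replicate 2. Cxcl2 was higher in KO when KO replicate 1 was left out (edgeR adjusted p = 1.79e-05), against no UMI in WT, so no fold is given. Nlrp3, an inflammasome sensor, had 0 and 4 UMIs there in KO and 0 and 2 in WT.

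The levels of the targets across classes of WT cells are a description, since the classes come from clustering the same cells. The highest mean level lay in mesenchymal-like cells for 8 targets, in primordial germ cell-like cells for 7, in megakaryocyte-like and in hemogenic endothelial-like cells for 5 each, and in endothelial-like cells for 3. These counts include genes too low for a test in every class. They are Cxcl2 (mesenchymal-like, 0.161 CPM) and Nlrp3 and Ccl3 (hemogenic endothelial-like, 0.626 and 7.52 CPM), so their places say little. With the host included, 14 of the 29 genes had both WT values of the highest class above both of the second, and 21 of 29 had the same highest class in KO.

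Among the transcription factors, Mef2c had 296 ± 121 CPM in megakaryocyte-like cells, 257 ± 67.0 in hemogenic endothelial-like and 245 ± 25.2 in endothelial-like cells, which overlapped, and then 21.8 ± 4.02 in mesenchymal-like and 4.47 ± 0.0205 in primordial germ cell-like cells, which were apart. Nfia was highest in mesenchymal-like cells, at 33.6 ± 1.78 CPM, followed by endothelial-like cells at 27.4 ± 2.52, and had 0.626 ± 0.886 CPM in hemogenic endothelial-like cells. Foxo1, a forkhead factor that responds to insulin signalling, was highest in endothelial-like cells, at 42.4 ± 2.54 CPM, and lowest in megakaryocyte-like cells, at 7.03 ± 1.44, with all 4 steps of the order apart. Foxo3, its relative, stayed between 6.23 ± 0.253 CPM in endothelial-like and 17.6 ± 0.861 CPM in primordial germ cell-like cells. Prdm1, a repressor that specifies germ cells, had 42.2 ± 0.231 CPM in primordial germ cell-like cells, 13.7 ± 0.981 in endothelial-like cells and none in megakaryocyte-like cells. E2f1 was 2.29 times as high in primordial germ cell-like cells (52.0 ± 13.7 CPM) as in the next class. Cbfb (57.2 ± 12.8 CPM), Sp3 (60.1 ± 4.30 CPM), a zinc finger factor of GC-rich promoters, and Pknox1 (19.4 ± 0.737 CPM), a homeodomain partner of Hox and Pbx proteins, were highest in mesenchymal-like cells, and Sp3 and Pknox1 varied by 1.87-fold and 1.702-fold over the 5 classes. Only Sp3 was apart from the second class. Cbfb overlapped with endothelial-like cells, where it was highest in KO, and Pknox1 overlapped at each step of the order.

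The genes of division, chromatin, the cytoskeleton and protein turnover were as follows. Parp1 had 571 ± 45.9 CPM in primordial germ cell-like cells, 3.13 times the next class, and Ect2 (55.8 ± 3.19 CPM) and Cdc27 (56.4 ± 1.92 CPM) were also highest there and apart from the second class. Smarcd1, a subunit of the BAF chromatin remodeller, was highest there too, at 69.4 ± 18.2 CPM, but overlapped with each neighbour in the order. Stmn1 was highest in mesenchymal-like cells, at 1608 ± 34.9 CPM, and so was Epb41l3, which links membrane proteins to the cytoskeleton, at 37.8 ± 1.61 CPM, 3.55 times the next class. Rhob was highest in endothelial-like cells, at 215 ± 48.1 CPM, and lowest in megakaryocyte-like cells, at 35.4 ± 15.1 CPM. Fbxw7, the substrate receptor of a ubiquitin ligase, ranged only from 26.3 ± 5.42 CPM in megakaryocyte-like to 38.2 ± 7.95 CPM in hemogenic endothelial-like cells.

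Among receptors and signalling genes, Igf1r, the IGF1 receptor, had 88.9 ± 17.6 CPM in megakaryocyte-like cells, overlapping with mesenchymal-like cells at 84.4 ± 1.59, and 4.58 ± 0.356 CPM in primordial germ cell-like cells. Irs1, an adaptor below it, had 9.57 ± 0.787 CPM in mesenchymal-like cells and a mean of at most 0.862 CPM in each other class. Stim1, the calcium sensor of the endoplasmic reticulum, was highest in megakaryocyte-like cells (39.1 ± 21.2 CPM), as were Scarb1, the HDL receptor (44.7 ± 5.07 CPM), and Chuk, an IκB kinase subunit (30.2 ± 6.93 CPM), and only Chuk was apart from the second class. Itgb1 had 324 ± 95.3 CPM in endothelial-like cells and 69.6 ± 9.06 in primordial germ cell-like cells. Rasa1, a GTPase activator for Ras, varied from 54.3 ± 5.24 CPM in mesenchymal-like to 79.8 ± 19.9 CPM in hemogenic endothelial-like cells. Crim1 had 29.4 ± 6.21 CPM in hemogenic endothelial-like cells and 2.63 ± 1.005 in primordial germ cell-like cells.

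**Figure D5:**
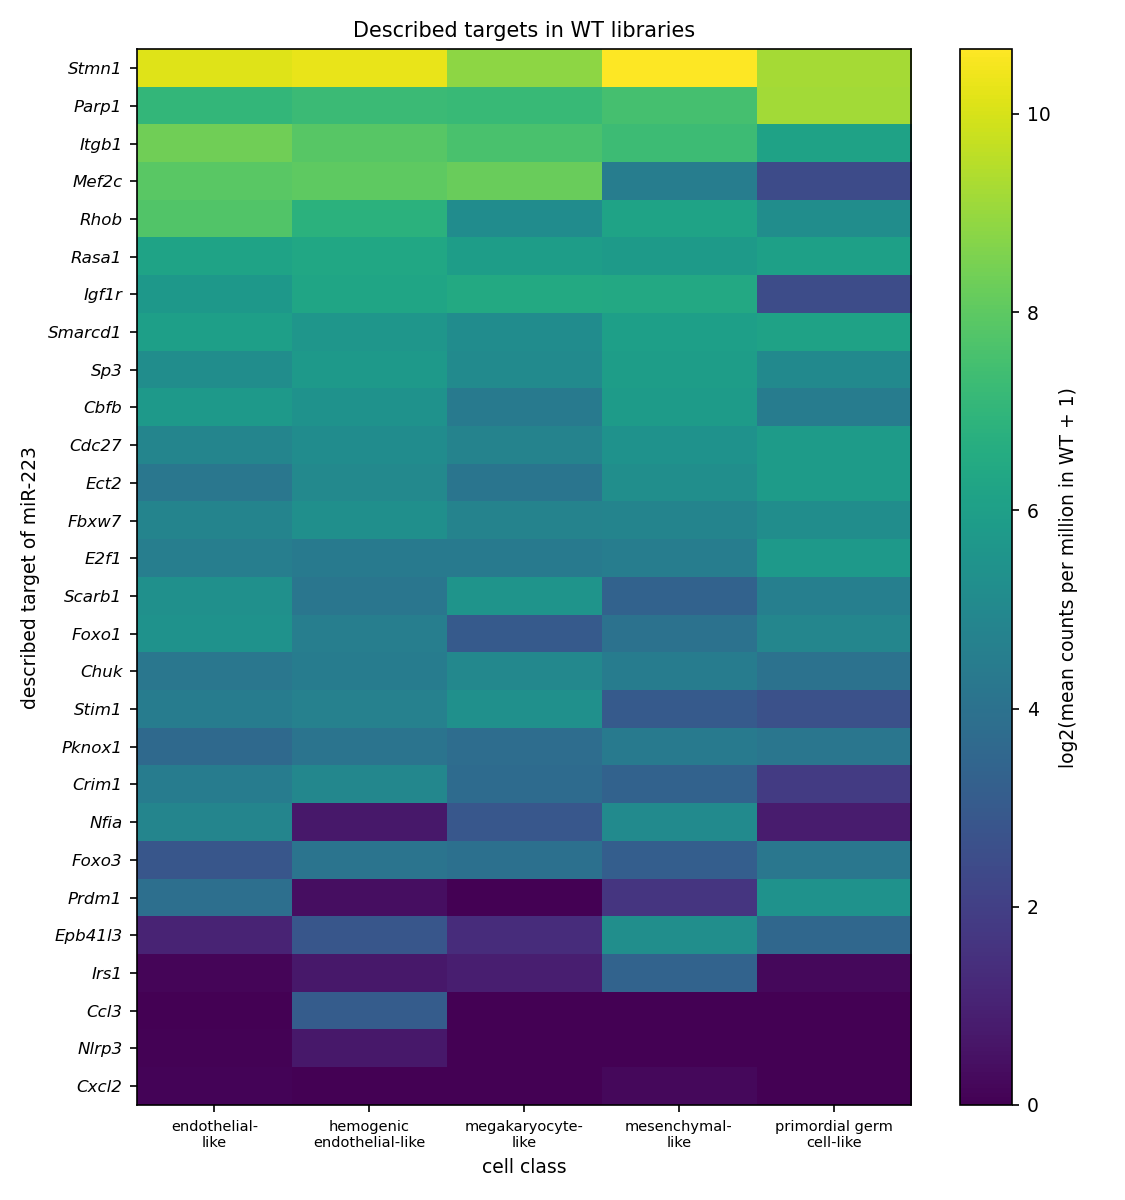
Mean level in the 2 WT libraries of each of the 28 described targets (rows, ordered by their mean over classes) in 5 cell classes (columns), on a log2(CPM + 1) colour scale; it is read along a row. Mef2c is bright in the endothelial-like, hemogenic endothelial-like and megakaryocyte-like columns and dark in the primordial germ cell-like column, Parp1 is brightest in the primordial germ cell-like column, and Ccl3, Nlrp3 and Cxcl2 are dark nearly throughout.

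The machinery that makes and uses microRNAs was present and was not called in any class. Of its 16 genes, 15 or 16 could be tested in each class, with 0 called by edgeR, 0 at an unadjusted p under 0.05 and 0 called by DESeq2. Dicer1, the nuclease that cuts precursors, had 91.0 and 93.2 CPM in KO endothelial-like cells and 83.9 and 92.0 CPM in WT (log2 difference 0.08, SE 0.125), and 98.7 and 80.4 CPM in KO hemogenic endothelial-like cells and 81.4 and 102 CPM in WT (-0.09, SE 0.210). Ago2, which carries the microRNA to its target, had 63.3 and 58.4 CPM in KO endothelial-like cells and 54.6 and 62.9 CPM in WT (0.06, SE 0.137). The groups overlapped for both genes in these classes.

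Of 8 factors described to act on the miR-223 promoter, 2 to 7 could be tested in a class, with 0 called by edgeR, 1 at an unadjusted p under 0.05 (Gfi1 in endothelial-like cells) and 0 called by DESeq2. Gfi1 had 1.09 and 0.289 CPM there in KO (71 and 30 UMIs), against 0.274 and 0.239 CPM in WT (16 and 29 UMIs). Its log2 difference was 1.40 (SE 0.591, edgeR unadjusted p = 0.0438). Of the 7 factors tested in endothelial-like cells, 4 had an estimate above 0 and 3 below. The part of these factors in the host's difference was not tested. Spi1 had 163 and 152 CPM in KO hemogenic endothelial-like cells, against 188 and 153 CPM in WT (log2 difference -0.07, SE 0.180), and 19.97 and 13.2 CPM in KO megakaryocyte-like cells, against 13.2 and 16.0 CPM in WT (0.12, SE 0.447). Cebpb had 204 and 139.6 CPM in KO hemogenic endothelial-like cells, against 163 and 159.7 CPM in WT (0.10, SE 0.198). Cebpa was nearly absent, with 3 and 3 UMIs in KO hemogenic endothelial-like cells and 0 in both WT libraries.

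Of 8 genes around the host on the X chromosome, 2 to 7 could be tested in a class, with 0 called by edgeR, 1 at an unadjusted p under 0.05 (Zc4h2 in hemogenic endothelial-like cells) and 0 called by DESeq2. Vsig4 had 1 and 2 UMIs in KO endothelial-like cells and 2 and 1 in WT, and none in the other 4 classes. Xist, the RNA of the inactive X, had 1 UMI in endothelial-like cells of KO replicate 1 and 261 CPM in those of KO replicate 2, against 268 and 264 CPM in WT. Its part in the difference of the X-linked host was not tested.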

How the data were processed

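The deposited files hold unnormalized UMI counts for each gene and barcode, written by Cell Ranger 3.1.0 per the file headers, and the submitters' processing notes name Cell Ranger and Seurat 4 with no role given. The genome build and annotation the authors used are not given in any source used here, and 30934 of 31053 gene IDs matched GENCODE M21 (GRCm38). Members, lists and tests were chosen with earlier results of these data known.

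Barcodes had to have 1000 genes or more and less than 10% of UMIs from mitochondrial genes, and doublets were removed by a nearest-neighbour score against simulated pairs (0.8% expected per 1000 barcodes). Counts were scaled to 10000 UMIs per cell, and 2000 variable genes, 40 principal components and 20 neighbours went into Leiden clustering at resolution 1 (scanpy 1.11.5, leidenalg 0.10.2, Python 3.11.15). Among the variable genes were 9 members. A cluster was named where a marker list averaged a log2 fold of at least 1.5 against the other clusters with at least 3 markers at 5 CPM or more. Otherwise it was endothelial-like where the endothelial list averaged a log2 CPM of at least 7 and a log2 fold of at least -0.5. The unnamed cluster of 747 cells averaged 7.49 and -0.67, so it is in no endothelial-like value. The naming limits, the minimum of 10 cells per library, and the choice to run Leiden until it no longer changed were set after seeing the clusters and before KO was compared with WT.

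For tests, the counts of each class were summed within each library and compared with edgeR 4.0.16 (filterByExpr, TMM scaling, robust quasi-likelihood fit, R 4.3.3), and the steps were tested on simulated data. Effects were compared between classes in a fit with library, class and genotype by class. Alternatives were DESeq2 1.42.0, RLE scaling, no filter, a replicate block, each library left out, doublets kept, members left out of clustering, and, chosen after seeing the data, Leiden stopped after 2 iterations. Binomial intervals and floors of 3 counts cover counting error only. KO and WT values were given for the host and, in each class, for the 3 members of the highest mean CPM and the 3 of the smallest p. Nfia in mesenchymal-like cells and the rows of E2f1 in endothelial-like cells, Rhob in endothelial-like cells, Cxcl2, Ccl3 and Nlrp3 were added after their values were seen. The same holds for the values of Gfi1 in endothelial-like cells. The labels do not say that replicate numbers pair the libraries.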

Additional observations from a re-analysis of the deposited data

How the results depend on the processing

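Of 2097 values under the alternatives run, for members that were tested in the main comparison as well, 2085 stayed on the same side of the threshold, 3 lost the call and 9 gained it. The sign turned in 232 of the 2097 values, 185 with a library left out, and none of the 232 was called in either setting. The calls of Ccl3 and Cxcl2 in hemogenic endothelial-like cells are not counted here, since neither gene was tested in the main comparison. The counts of genes called moved more, and the cause was not tested. Without a filter on low counts, 83 genes were called in endothelial-like (18 with it), 18 in hemogenic endothelial-like (3), 14 in megakaryocyte-like (0), 42 in mesenchymal-like (1) and 37 in primordial germ cell-like cells (16), with 2 members (the host and Ccl3) in hemogenic endothelial-like and 1 in megakaryocyte-like cells. For the differences from the endothelial-like effect the counts without the filter were 17 for hemogenic endothelial-like (0 with it), 101 for megakaryocyte-like (1), with 1 member, 41 for mesenchymal-like (2) and 19 for primordial germ cell-like cells (1). DESeq2 called 44 genes in endothelial-like, 1 in hemogenic endothelial-like, with 0 members, and 5 in mesenchymal-like cells. With doublets kept, 1 gene was called in hemogenic endothelial-like, with 0 members, 0 in mesenchymal-like and 9 in primordial germ cell-like cells, and the effect differed for 0 genes in mesenchymal-like and 0 in primordial germ cell-like cells. RLE scaling left 1 gene in the mesenchymal-like difference.

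Leaving out 1 library gave 27 to 100 genes in endothelial-like, 2 to 36 in hemogenic endothelial-like (members 0 to 2, the host, Cxcl2 without KO replicate 1 and Rhob without WT replicate 2), 0 to 7 in megakaryocyte-like (members 0 to 1), 5 to 62 in mesenchymal-like (members 0 to 1) and 12 to 68 in primordial germ cell-like cells. The differences of effects gave 0 to 11 genes for hemogenic endothelial-like, 0 to 75 for megakaryocyte-like (members 0 to 1), 1 to 11 for mesenchymal-like and 1 to 5 for primordial germ cell-like cells. The library left alone in its group is assumed there to vary like the other group's.

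With the replicate number as a block, 66 genes were called in endothelial-like, 5 in megakaryocyte-like (the host among them), 131 in mesenchymal-like and 45 in primordial germ cell-like cells. Same-numbered libraries deviated together with correlations of 0.163 to 0.479, but with 2 pairs this does not show that the numbers pair them.

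With Leiden stopped after 2 iterations, an alternative chosen after seeing the data, the hemogenic endothelial-like class also took in a second cluster of 831 cells and held 316 and 311 KO cells and 57 and 338 WT cells. That cluster was led by Htra1, Pde3a and Gkn3, with no marker of the hemogenic list among its top 10 genes, so the class was then mostly other cells and its values are not set beside those of the hemogenic cluster. The differences between classes were not run under it.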
